A study of Arabidopsis thaliana with 434 samples.

Results

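The anac053 line of Arabidopsis thaliana is a T-DNA insertion line named after ANAC053, a NAC transcription factor gene also known as NTL4 (locus AT3G10500, chromosome 3). Its leaves were sampled at 14, 18, 22 and 26 d of leaf age, under the letter A and the numbers 1 and 2 of the sample titles. Of its 8 samples, 7 were analysed here, out of 434 in the series. The left-out sample is number 1 at 18 d, whose label was doubtful, as its counts below show. That choice was made with its ANAC053 count known, so the 18 d level of ANAC053 in the remaining sample is a description. The series counted transcripts of 49 NAC genes and those of the references UBQ10, TUB2, ACT7 and ACT2 with the NanoString nCounter, which counts labelled probes bound to RNA without amplification. It covered wild type of the Columbia ecotype (Col), the parent of every line, and 49 insertion lines from the SALK, SAIL and GABI-KAT collections, in whole leaves.

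Wild-type samples carrying the letter A served as controls, 4 at 14 d and 2 at each later age (10 in all), and all 34 Col samples as a check. The anac053 group has 2 samples at 14, 22 and 26 d and 1 at 18 d. No treatment is given in the labels for either group. The labels name no second insertion allele and no complemented line, and give neither the insertion site nor the probe position, so the group stands for 1 line. Nor do they state that replicates came from different plants. The p-values therefore measure only how far samples of a group spread, which may be technical. That spread was estimated over all groups of the series, not from anac053 and Col A alone. A normalised count below is the raw count divided by the mean of the 4 reference genes of its sample, times the mean of that divisor over the series. Log2 differences come from 1 edgeR quasi-likelihood model of the raw counts, positive where anac053 was higher than Col A, and carry 95% intervals.

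ANAC053 encodes a NAC protein with a transmembrane segment, which keeps it at a membrane until it is released and enters the nucleus. It is known as NTL4 for its part in the production of reactive oxygen species and in leaf senescence under drought. With its close relative ANAC078 it also drives proteasome genes when the proteasome is impaired. Leaf senescence in Arabidopsis is steered by many NAC factors, among them the promoters ANAC092 (ORE1), ANAC029 (NAP) and ANAC059 (ORS1) and the inhibitors ANAC042 (JUB1) and ANAC083 (VNI2), several of which regulate each other's genes.

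Total counts ran from 31613 to 687229 over the series, with a median of 225519. The anac053 sample number 1 at 22 d had the lowest total of all, so that a single raw count in it is worth 8.49 normalised counts, against 0.331 to 2.07 in the other 16 samples of the comparison. Its ACT2 share of the reference counts was 12.9% and its UBQ10 share 72.7%, against 7.33 to 10.5% and 76.0 to 82.2% in the others. Beside the targeted gene, 46 NAC genes passed the filter on low counts and were tested. ANAC076 and ANAC086 lay below it. The 4 tested xylem NAC genes, markers of vascular cells, summed to 279 normalised counts in both anac053 samples and to 290 to 309 in Col A at 14 d. The sums were 260 in anac053 and 211 and 250 in Col A at 18 d, 297 and 612 against 412 and 923 at 22 d, and 433 and 620 against 555 and 663 at 26 d, so that the groups overlapped at the last 2 ages. ANAC104 made up the larger part of each sum. From 14 to 26 d it rose by a log2 change of 1.57 in Col A, while ANAC007, ANAC010 and ANAC101 changed by -0.83, -2.12 and -0.90. The estimates in anac053 had the same signs. The sums thus mainly follow ANAC104 and do not measure the amount of vascular cells. No probe marks mesophyll, so the labelled tissue could be checked no further.

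ANAC053 itself was reduced to near the background of the assay. In Col A the normalised counts were 301, 231, 256 and 387 at 14 d, 191 and 324 at 18 d, 462 and 662 at 22 d, then 540 and 522 at 26 d. In anac053 they were 6.32 and 15.04 at 14 d, 2.07 at 18 d, 16.99 and 15.1 at 22 d, then 13.3 and 7.34 at 26 d. At 14, 22 and 26 d every anac053 sample lay below every Col A sample. The sample kept at 18 d did so too. The left-out library, at 212, lay between the 2 Col A samples of that age, so the choice of sample fixed the separation at 18 d.

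In raw counts the anac053 samples held 15 and 36 molecules of ANAC053 at 14 d, 1 at 18 d, 2 and 18 at 22 d, then 14 and 6 at 26 d. Set against Col A, the summed counts came to 3.64% of the wild-type level at 14 d (exact 95% Poisson interval 2.71 to 4.78), 0.777% at 18 d (0.0197 to 4.33), 2.79% at 22 d (1.70 to 4.30) and 2.01% at 26 d (1.23 to 3.11). The mean of the 8 negative probes in the same samples corresponds to 1.28, 1.94, 1.10 and 1.23% of wild type, so part of what remained is probe background. The summed raw counts of ANAC053 were 51, 1, 20 and 20 at the successive ages. Those of the highest negative probe were 26, 5, 16 and 20. At 18 and 26 d ANAC053 was thus not above the highest negative probe. The Poisson intervals cover counting error only.

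With ages pooled, 18 d included, the log2 difference was -5.23 (-5.79 to -4.67). The edgeR quasi-likelihood p adjusted over the 5 tests of this gene was 5.88e-46. Fitted to the anac053 and Col A samples alone, the same test gave an adjusted p of 7.39e-11. At single ages the log2 difference was -4.78 at 14 d, -5.18 at 22 d and -5.66 at 26 d, with adjusted p-values of at most 7.19e-17 in the test on all samples. Without 18 d the pooled difference was -5.14, with an adjusted p of 9.28e-36 in that test. In these whole leaves, fewer cells of a type and less RNA per cell cannot be told apart.

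**Figure D1:**
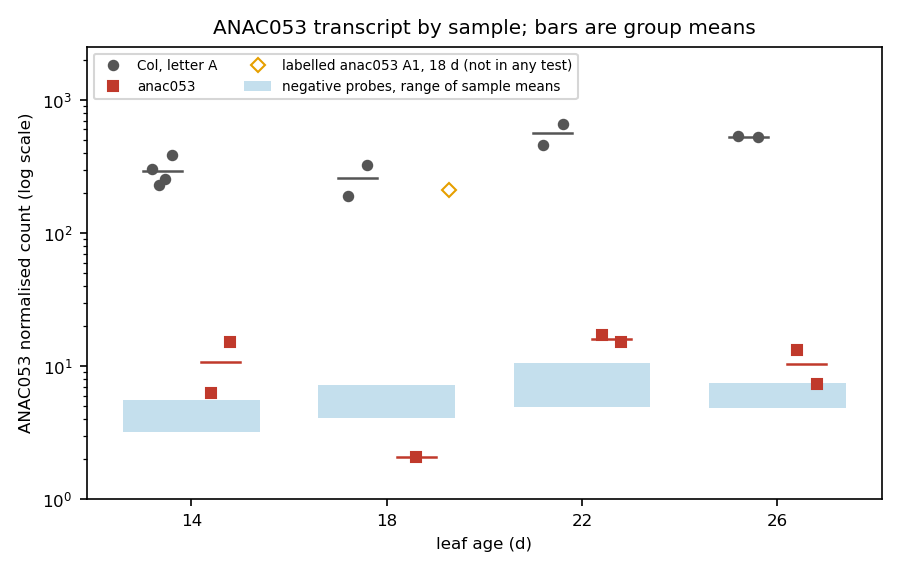
Normalised count of ANAC053 (log axis) against leaf age, with a point per sample, a bar at each group mean, and a blue band for the range of the sample means of the negative probes. The anac053 samples lie between 2.07 and 16.99 and the Col A samples between 191 and 662, while the open diamond, the library labelled anac053 A1 at 18 d, lies at 212.

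Among the 426 samples of the other genotypes, the ANAC053 level relative to all Col samples of its age had a median of 102%. A single library fell below 10%, at 2.50%, and the next lowest stood at 30.1%. That library is labelled anac055 A1 at 18 d. It is the counterpart of the left-out one: under the label anac053 A1, ANAC053 stood at 212 normalised counts and ANAC055 at only 3.86, whereas under the label anac055 A1 they stood at 5.35 and 163. ANAC055 encodes a stress and jasmonate NAC factor. In the second samples the counts went with the labels, at 2.07 for ANAC053 and 308 for ANAC055 in anac053 A2, and at 181 and 4.47 in anac055 A2.

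A further gene, named after its values were seen, separated the pair in the same way. ANAC056 (NARS1, with a role in seed development) stood at 2447 in the library labelled anac053 A1 and at 2198 in anac055 A2, above all 8 wild-type samples of 18 d (695 to 1499). It stood at 1183 in the library labelled anac055 A1 and at 1369 in anac053 A2, within the wild-type range. The library labelled anac053 A1 thus had the low ANAC055 and high ANAC056 of anac055 A2. ANAC056 (AT3G15510) and ANAC055 (AT3G15500) have adjoining locus numbers, so ANAC056 is not taken as an independent marker. Other genes, also named after their values were seen, went with the labels. ANAC047 stood at 129 and 130 in the libraries labelled anac053 A1 and A2, against 66.9 and 82.7 in anac055 A1 and A2. ANAC092 stood at 1247 and 1390 against 995 and 900. The label of the library called anac053 A1 was not tested in any other way. With that library kept as labelled, the 18 d difference of ANAC053 was -1.26 in place of -6.96.

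The first comparison asks whether the loss of ANAC053 transcript came with a change in other NAC transcripts across the ages as a whole. It did not bring any gene past the test: 0 of 46 genes were higher and 0 were lower at an adjusted p of 0.05 (edgeR quasi-likelihood test with Benjamini-Hochberg adjustment, 0% called), and 0 reached an unadjusted p below 0.05. The lowest unadjusted p was 0.103 and the lowest adjusted p 0.960. DESeq2 also called 0 genes, with 1 at an unadjusted p below 0.05. The estimates lay on both sides of 0, with 23 genes above and 23 below, and the median absolute log2 difference was 0.10.

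A p above the threshold does not show that levels were equal, so the intervals give what these samples could hold. For 44 of the 46 genes the 95% interval lay within a log2 difference of 1 in either direction, and for 23 within 0.5. The half-width of the interval ran from 0.15 to 0.99, with a median of 0.38. The genes whose interval reached further were ANAC042 and AT3G12910.

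**Figure D2:**
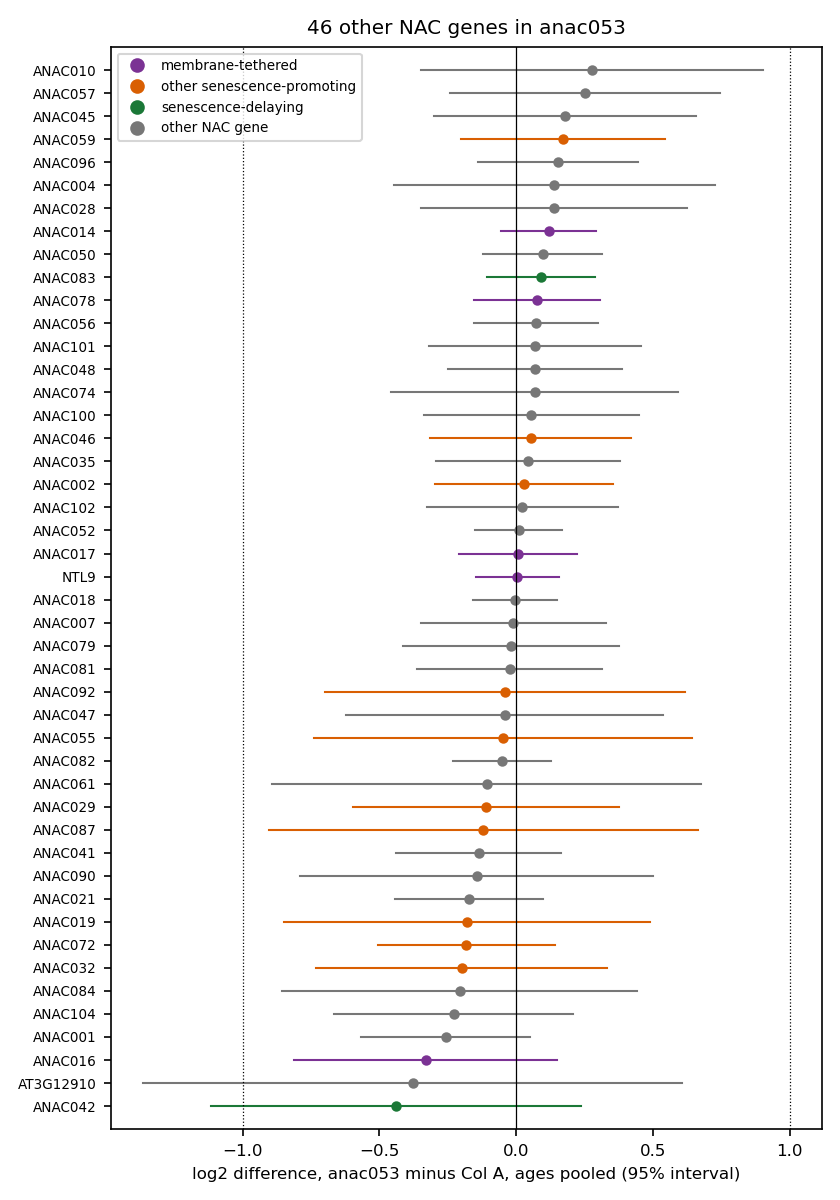
Log2 difference between anac053 and Col A with ages pooled (points) and its 95% interval (lines) for the 46 other NAC genes tested, coloured by role (ANAC016 and NTL9 are drawn as membrane-tethered and also count among the senescence promoters). Dotted lines mark a log2 difference of 1 either way. Each interval includes 0, and the largest absolute estimate is -0.44, for ANAC042.

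The closest relative, ANAC078 (also called NTL11), shares the proteasome role of ANAC053. In Col A its normalised counts were 2852, 2855, 2881 and 3450 at 14 d, 2889 and 3996 at 18 d, 3967 and 5854 at 22 d, then 4396 and 4647 at 26 d. In anac053 they were 2961 and 3168, then 4719, then 5036 and 4707, then 4458 and 4396. The anac053 samples lay inside the wild-type range at 14 and 22 d, and the lone sample of 18 d lay above both Col A samples. The pooled log2 difference was 0.08 (-0.15 to 0.31), so its interval holds no rise above 0.31. In the line labelled anac078, which belongs to letter C, ANAC053 differed from its own wild type by -0.10 (adjusted p = 0.969 over the genes of that line, edgeR quasi-likelihood test), and 0 of the 46 other genes were called there.

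The membrane-tethered NAC genes as a group showed no called member, 0 of 5, and a median log2 difference of 0.0057 against -0.00071 over all 46 genes. NTL9, a calmodulin-regulated factor, had the narrowest interval among them, 0.0039 (-0.15 to 0.16). ANAC017, which carries mitochondrial distress signals to the nucleus, was at 0.0057 (-0.21 to 0.22), and ANAC014 at 0.12 (-0.06 to 0.29).

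ANAC016, a drought and senescence promoter of the same group, had the third largest absolute estimate of all genes, -0.33 (-0.81 to 0.15, unadjusted p = 0.175). Its Col A samples held 100, 83.3, 96.1 and 157 normalised counts at 14 d, 204 and 222 at 18 d, 329 and 527 at 22 d, then 636 and 508 at 26 d. Its anac053 samples held 69.1 and 85.2, then 147, then 289 and 556, then 457 and 454. They lay below both Col A samples at 18 and 26 d and overlapped them at 14 and 22 d. The wider set of all Col samples reached lower, from 53.0 to 222 at 18 d and from 227 to 749 at 26 d, and those ranges include the anac053 samples.

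Of the 12 senescence-promoting genes, 0 passed the test in either direction with ages pooled. Their median log2 difference was -0.08, with 8 estimates below 0 and 4 above, and single values from -0.33 to 0.17. ANAC092, the central promoter of age-dependent cell death, had 361, 708, 347 and 422 normalised counts in Col A at 14 d and 1156 and 2135 at 26 d. Its anac053 samples held 373 and 573 at 14 d and 1539 and 1899 at 26 d, inside those ranges, and its pooled difference was -0.04 (-0.70 to 0.62). ANAC029, which controls chlorophyll loss, was at -0.11 (-0.60 to 0.38), and ANAC059, a relative of ANAC092, at 0.17 (-0.20 to 0.54).

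The intervals of this list were of unequal width. ANAC002 (ATAF1) was at 0.03 (-0.30 to 0.35), ANAC046, a promoter of chlorophyll breakdown and cell death, at 0.05 (-0.32 to 0.42) and ANAC072 (RD26) at -0.18 (-0.51 to 0.14). The widest was that of ANAC087, a factor of programmed cell death in the root cap, at -0.12 (-0.90 to 0.66). ANAC087 ranged from 191 to 1584 between the 2 Col A samples of 22 d alone. ANAC019, ANAC055 and ANAC032 lay at -0.18, -0.05 and -0.20, each with an interval from below -0.70 to above 0.30.

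ANAC042 (JUB1), which delays senescence and lowers hydrogen peroxide, had the largest estimate, -0.44 (-1.11 to 0.24, unadjusted p = 0.203). In Col A its normalised counts were 168, 163, 142 and 323 at 14 d, 148 and 276 at 18 d, 408 and 943 at 22 d, then 684 and 453 at 26 d. In anac053 they were 73.8 and 132 at 14 d, 376 at 18 d, 178 and 552 at 22 d, then 618 and 295 at 26 d. At 14 d both anac053 samples lay below every Col A sample, while at 18 d the anac053 sample lay above both. All Col samples of 14 d reached from 53.2 to 323, a range that includes both anac053 samples.

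ANAC083 (VNI2), the other senescence-delaying gene, is known from xylem and leaf ageing. It had 6548 and 6955 normalised counts in anac053 at 14 d, above the 4 Col A samples (5816 to 6317) but inside the range of all Col samples (5816 to 8503). Its pooled difference was 0.09 (-0.11 to 0.29).

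Among the remaining lists 0 members were called as well. The stress genes of the SNAC-A clade had a median difference of -0.05 over 7 members, with ANAC081 (ATAF2) at -0.02 and ANAC102 at 0.02. The clade of ANAC092 had 0.02 over 4 members, with ANAC079 at -0.02 and ANAC100 at 0.06. In the trio of genes that the study singled out, ANAC017 lay at 0.0057, ANAC082 at -0.05 (-0.23 to 0.13) and ANAC090 at -0.14 (-0.79 to 0.50). The 4 tested xylem genes (ANAC007, ANAC010, ANAC101 and ANAC104) had a median of 0.03, and the phloem gene ANAC045 lay at 0.18.

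The 5 largest absolute pooled estimates were those of ANAC042, AT3G12910 (-0.38, -1.36 to 0.61), ANAC016, ANAC010 (0.28, -0.35 to 0.90) and ANAC001 (-0.26, -0.57 to 0.05). AT3G12910 held 5.48 to 29.99 normalised counts at 14 d and 16.99 to 306 at 22 d. ANAC010, a xylem cell-wall factor, held at most 32.2 normalised counts in any sample of the comparison. ANAC001 held 105 and 170 in anac053 at 14 d against 157 to 209 in Col A, and 194 and 188 at 26 d against 262 and 265. At 18 d its anac053 sample, at 213, lay above both Col A samples (134 and 180). Its groups overlapped at 14 and 22 d and stood apart at 26 d, in the opposite direction to 18 d.

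ANAC053 lies next to ANAC052 on chromosome 3, and ANAC052 next to ANAC050, per the RefSeq gene table. ANAC050 and ANAC052, singled out for that position after their values were seen, act with a histone demethylase in the control of flowering. ANAC052 was at 0.0094 (-0.15 to 0.17), with 629 and 596 normalised counts in anac053 at 14 d against 607 to 632 in Col A. ANAC050 was at 0.10 (-0.12 to 0.31). At 22 d its anac053 samples held 1011 and 925, above the Col A samples (818 and 911), and at 26 d 883 and 902 against 857 and 858.

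**Figure D3:**
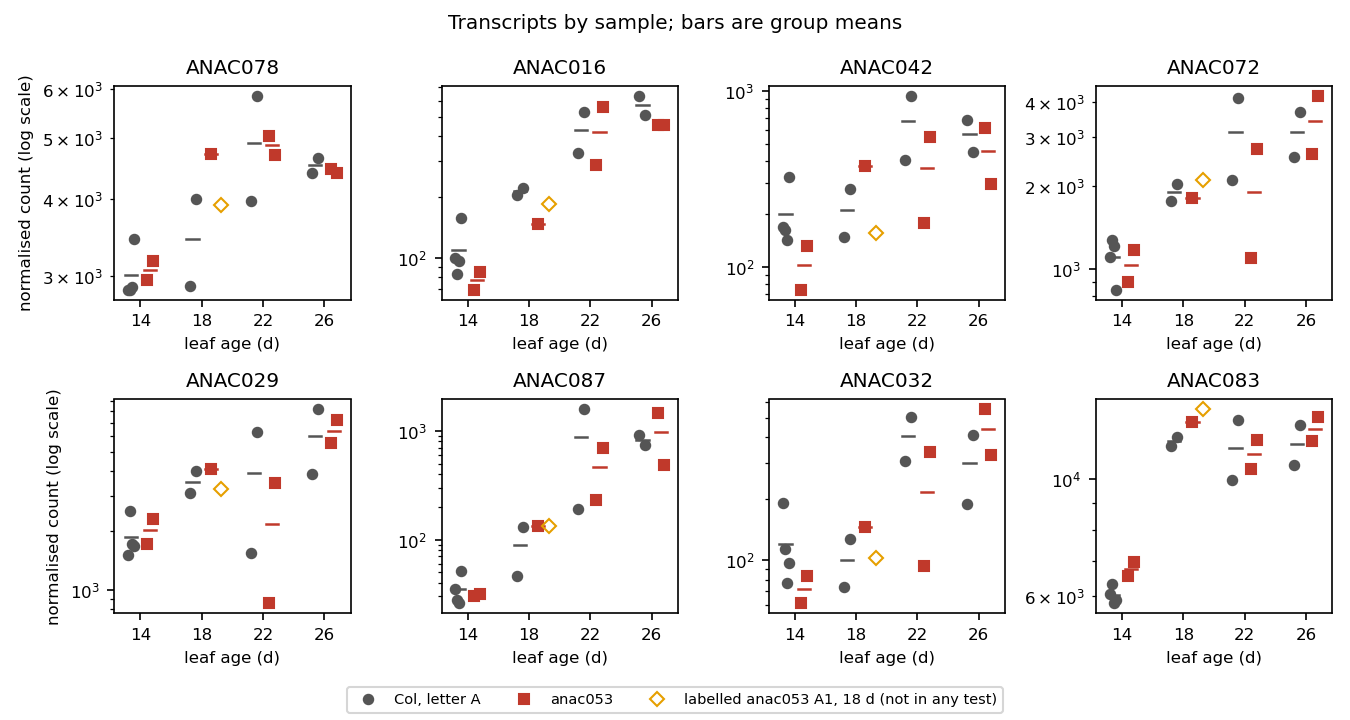
Normalised counts (log axes, each panel with its own range) of 8 named genes against leaf age, with a point per sample and a bar at each group mean. Samples of anac053 and Col A overlap at most ages, and the 2 Col A samples of 22 d lie far apart for ANAC029 (1546 and 6274) and ANAC087 (191 and 1584).

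Age by age, 0 of 184 gene and age pairs passed the test (edgeR quasi-likelihood test, Benjamini-Hochberg over all 184 pairs, 0% called). At an unadjusted p below 0.05 there were 3 pairs, all at 22 d, and DESeq2 also called 0 pairs, with 3 at that unadjusted level. At 14 d the log2 differences ran from -1.02 to 0.42, with a median absolute value of 0.12. At 26 d they ran from -0.46 to 1.02, with a median absolute value of 0.14. At 18 and 22 d the medians of the absolute values were 0.33 and 0.30. The design held 1 anac053 sample at 18 d. At 22 d anac053 held the shallowest library, and the 2 Col A samples lay far apart for genes such as ANAC029 (1546 and 6274). The part of each in the spread was not tested.

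The 3 pairs of 22 d, named after their values were seen, were ANAC072, ANAC041 and ANAC096. ANAC072 encodes RD26, a factor of abscisic acid and stress responses. It held 2087 and 4143 normalised counts in Col A and 1096 and 2711 in anac053, so that the groups overlapped, and the difference was -0.70 (-1.34 to -0.05, adjusted p = 0.999 by edgeR's quasi-likelihood test). ANAC041, a close relative of ANAC083, held 669 and 1081 against 365 and 746, a difference of -0.62. ANAC096, an abscisic acid response factor, held 52.5 and 33.6 against 51.0 and 73.7, a difference of 0.61.

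These differences depended on single libraries. Without anac053 number 1 at 22 d, ANAC072 was at -0.20 and ANAC041 at -0.23, and without anac053 number 2 they were at -1.51 and -1.26, with adjusted p-values of 0.107 and 0.160. Without Col number 2 they were at -0.12 and -0.24. ANAC029 turned its sign, from -0.84 with all 4 samples of 22 d to 0.50 without Col number 2. Number 1 was the lower in both groups for ANAC029, at 1546 in Col A and 858 in anac053, against 6274 and 3459 in number 2. With all 8 Col samples of 22 d as reference, ANAC072 was at -0.47, ANAC041 at -0.24 and ANAC096 at 0.20. Without number 1 of both groups, ANAC072 was at -0.61 and ANAC096 at 1.13, with adjusted p-values of 0.996.

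At 22 d the senescence-promoting list had a median log2 difference of -0.55, against -0.13 over all genes, and 29 of the 46 genes lay below 0. The SNAC-A genes had a median of -0.70. Their summed counts at 22 d were 5138 and 9650 in anac053 and 8250 and 13597 in Col A, so that the groups overlapped. As ANAC002, ANAC019, ANAC032, ANAC055 and ANAC072 belong to both lists, the medians of the lists are not separate observations. At 26 d these medians were 0.12 and 0.14, against 0.06 over all genes, and at 14 d -0.06 and -0.10, against -0.02. At 18 d, with 1 anac053 sample, they were 0.19 and 0.43, against 0.20. ANAC032, a stress and senescence factor, illustrates the spread. It held 305 and 505 in Col A and 93.4 and 338 in anac053 at 22 d (-0.80, -1.83 to 0.24), and 187 and 411 in Col A and 551 and 329 in anac053 at 26 d.

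At 18 d the lone anac053 sample lay above both Col A samples for 30 of the 46 genes and below both for 7, where 0% of the pairs were called. Its mean reference count was 20837, against 36360 and 47478 in the Col A samples, and the part of this in the result was not tested. At 14 d both anac053 samples lay above every Col A sample for 2 genes and below every one for 3, at 22 d for 3 and 2 genes, and at 26 d for 5 and 6. No gene stood apart in the same direction at 3 or more ages, and 12 genes stood above at some age and below at another. By chance, a lone sample falls outside the range of 2 controls more often than inside it. Groups of 2 samples also often stand apart by chance. These counts therefore describe the samples and cannot show a trait of the line.

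**Figure D4:**
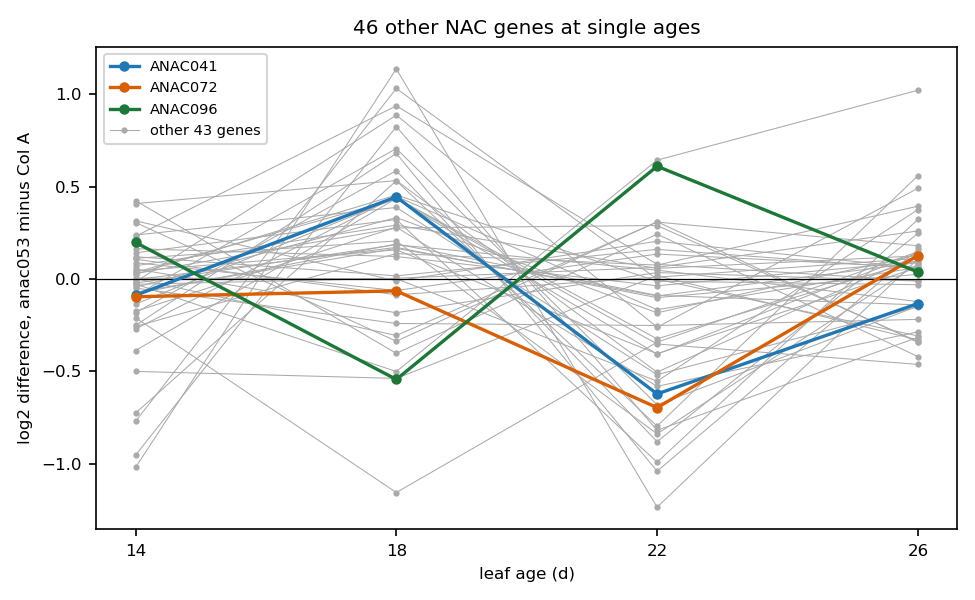
Log2 difference between anac053 and Col A at each leaf age for the 46 other NAC genes, with a line per gene and the 3 genes of lowest unadjusted p at 22 d in colour. The spread of the lines is widest at 18 and 22 d, and the coloured genes, at -0.70, -0.62 and 0.61 at 22 d, lie closer to 0 at 26 d.

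Whether the differences varied with age was tested for each gene with 3 degrees of freedom. None of the 46 genes passed (0 called, 0%), 0 reached an unadjusted p below 0.05 with edgeR and 0 with DESeq2, and the lowest adjusted p was 0.985. The 4 differences of ANAC078 were 0.03, 0.45, -0.01 and -0.03 at the successive ages. Those of ANAC042 were -0.95, 0.83, -0.82 and -0.32, each with an interval that included 0.

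The rise of NAC transcripts from 14 to 26 d was also seen inside anac053. In the edgeR quasi-likelihood test (Benjamini-Hochberg over the genes), 34 of the 46 genes were higher at 26 d in anac053 (73.9%) and 3 were lower (6.52%), and in Col A 35 were higher and 6 lower. These changes are relative to the reference genes: over the 46 genes the median log2 change in anac053 was 1.22, and with TMM scaling on the NAC genes it was 0.34, with 13 genes higher and 9 lower. ANAC053 itself went from 6.32 and 15.04 normalised counts to 13.3 and 7.34.

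All 12 senescence-promoting genes rose in anac053, with a median log2 change of 2.54 (2.12 in Col A), and 8 of the 12 still rose with TMM. Those that did not pass with TMM were ANAC002 (0.34), ANAC029 (0.78), ANAC092 (0.99) and NTL9 (-0.25). Their adjusted p-values in edgeR ran from 0.136 to 0.343. With DESeq2, 8 members of the list rose and 1, NTL9, fell (-0.40). ANAC087 rose by 4.99 ± 0.92 (SE) in anac053 and by 4.56 ± 0.68 in Col A, from 30.3 and 31.3 normalised counts to 1474 and 483. ANAC019 rose by 3.67 ± 0.74 and 3.26 ± 0.56. ANAC046 rose by 2.62 in anac053 and by 2.61 in Col A, and ANAC059 by 2.52 and 2.77. Of the senescence-delaying genes, ANAC042 rose by 2.15 in anac053 and 1.52 in Col A, but in anac053 it did not pass with TMM (1.30, adjusted p = 0.0611 in edgeR) or DESeq2 (1.08, adjusted p = 0.0617). ANAC083 rose by 0.88 and 0.95, but with TMM its change in anac053 was -0.024. ANAC078 rose by 0.53 and 0.59, and with TMM its change in anac053 was -0.37.

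The genes that fell in anac053 were ANAC028, ANAC045, a phloem sieve-element factor, and ANAC057. ANAC028 and ANAC057 are outside the naming rule and were named after their values were seen. Their normalised counts went from 27.0 and 41.3 at 14 d to 4.75 and 7.34 at 26 d for ANAC028, from 33.7 and 59.3 to 5.70 and 11.0 for ANAC045, and from 26.1 and 35.1 to 6.65 and 4.89 for ANAC057. The negative probes averaged 5.81 and 7.49 in the same samples of 26 d, so all 3 genes lay near background there and the size of each fall is not resolved. They also fell in Col A, where the 26 d samples held 2.70 to 9.48.

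The change from 14 to 26 d differed between anac053 and Col A for 0 of 46 genes (0%), with 0 at an unadjusted p below 0.05 in edgeR and 0 in DESeq2. The difference of the changes ran from -0.84 to 1.28 over the genes, with a median of 0.02. The highest value was that of ANAC032, whose change was 2.61 in anac053 and 1.33 in Col A, a difference of 1.28 (-0.07 to 2.64, unadjusted p = 0.0626, adjusted p = 0.992). For ANAC087 it was 0.43 (-1.63 to 2.48) and for ANAC092 0.02 (-1.73 to 1.77), intervals that leave room for a difference above 1 either way.

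**Figure D5:**
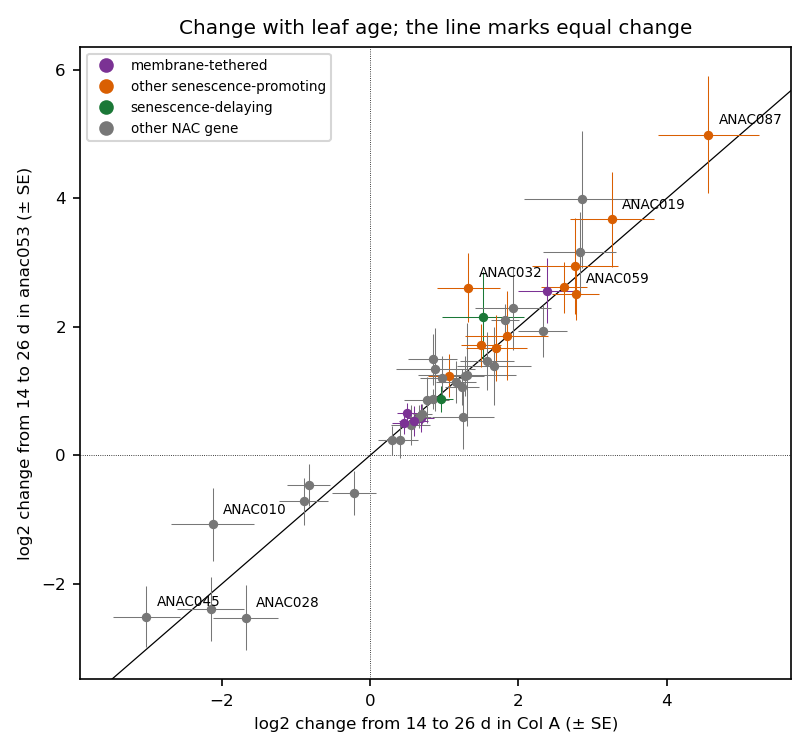
Log2 change from 14 to 26 d in anac053 (vertical, ± SE) against the same change in Col A (horizontal, ± SE) for the 46 other NAC genes, with the line of equal change. Genes spread along the line from ANAC045 (-3.02 in Col A and -2.51 in anac053, limited by background at 26 d) to ANAC087 (4.56 and 4.99), and ANAC032 lies above it at 1.33 and 2.61.

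Because Col A has as few as 2 samples at an age, anac053 was also set against the other lines of letter A, a contrast that uses no wild type. The reference was the 16 other lines sampled under A alone, which leaves out anac092, sampled under A and B. Against them, 0 of 46 genes passed (edgeR quasi-likelihood test, 0% called), and 1 had an unadjusted p below 0.05, against 3 with DESeq2. That gene was ANAC035 (LOV1, a floral repressor, named after its value was seen), at 0.27 (0.02 to 0.53, adjusted p = 0.915). At 22 d its anac053 samples held 1435 and 623 normalised counts, against a median of 591 in the other lines (343 to 1447). The value of 1435 came from the shallowest library. Against Col A the pooled difference of ANAC035 was 0.04 (-0.29 to 0.38). In the contrast with the other lines, ANAC042 was at -0.45 (-0.98 to 0.09), ANAC016 at -0.26 (-0.64 to 0.12) and ANAC078 at 0.02 (-0.16 to 0.20).

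Other lines tested in the same way, against Col of their own letter, give the scale of these counts. Of 48 lines, 39 had 0 genes called with ages pooled and 9 had at least 1, with the most, 20, in anac090. Among the 16 other lines sampled under A alone, which share the Col A samples with anac053, 4 had calls, of at most 2 genes, and anac092, under A and B, had 2. The median absolute log2 difference of anac053, 0.10, stood in rank 9 from the lowest among the lines under A alone, where the others ran from 0.07 to 0.21. ANAC053 was higher in 1 of the 48 lines, anac090, by 0.97 (adjusted p = 4.92e-05 over the genes of that line, edgeR quasi-likelihood test), and lower in 0.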

How the data were processed

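Raw probe counts were deposited by the authors as 1 table per leaf age and used as they stand: 67 probes (49 NAC, 4 reference, 8 negative, 6 positive) in 434 samples. Per the labels' protocols, 100 ng of total RNA entered each reaction; the sources used here do not name the counting software. Another deposited table holds the authors' log2 values, whose making is not described, used in 1 alternative. All 53 genes matched the RefSeq table of TAIR10.1 by locus. The probes' build is not given, so no coordinates or sequences are printed, and the planned promoter motif search was not run.

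Counts of all samples were fitted with edgeR 4.0.16 (R 4.3.3), a mean per genotype, letter and age, and the log of the 4 references' mean as offset. The libraries labelled anac053 A1 and anac055 A1 at 18 d had columns of their own. With ages pooled, age was a block. A gene was tested above a mean raw count of 12.6 (negative-probe mean 5.19 plus 2 SD of 3.71). Benjamini-Hochberg adjustment ran over the 46 other genes, or 184 gene and age pairs, at 0.05. The procedure was tested on simulated data. Of 13 pairs of samples with the same label, the pair with the doubtful library of 18 d among them, 0 agreed within sampling noise.

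Named were ANAC053, ANAC078, ANAC055, called genes, failing 5 of these the 5 largest pooled estimates, and list members. Members, lists and rule were chosen with earlier results of these data known. The change from 14 to 26 d and the fit without both 22 d A1 libraries were added after seeing the data. Alternatives used limma 3.58.1, DESeq2 1.42.0, TMM, other references, filters, controls and left-out samples.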

Additional observations from a re-analysis of the deposited data

Results flagged for a closer look

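In the 4 Col A samples of 14 d, a single sample stood apart for 4 of the 47 genes. The gap to the next sample made up 0.854 to 0.963 of the range of the group. Such a gap can be small in counts where the other samples nearly coincide. Chance flags about 1 in 20 groups at this limit. Sample A4 had the high value for ANAC042 (323 normalised counts), ANAC082 (906, against 806 to 821 in the others) and ANAC078 (3450). Sample A3 had it for ANAC052 (632, against 607 to 608).

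The library labelled anac053 A1 at 18 d, outside every comparison, lay above all 8 Col samples of that age for 10 genes. These were ANAC056 (2447 normalised counts against a highest wild-type value of 1499), ANAC004 (160 against 104), ANAC047 (129 against 107), ANAC052 (855 against 780), ANAC082 (1088 against 1044), ANAC083 (13562 against 13439), ANAC084 (25.1 against 20.8), ANAC087 (133 against 131), ANAC046 (367 against 359) and ANAC081 (1108 against 1077). Whether they belong to anac053 or to another genotype was not tested.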

How the results depend on the processing

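The counts of genes higher and lower with ages pooled, of pairs called at single ages and of differences that varied with age were 0 in all 33 alternatives, and the count against the other lines under letter A alone was 0 in all 19 that could be fitted. The lowest adjusted p was 0.256 with ages pooled (DESeq2), 0.107 at single ages, 0.237 for the variation with age and 0.0987 against the other lines (references without UBQ10, where 11 genes had an unadjusted p below 0.05). Without UBQ10 the median pooled difference over the 46 genes was -0.14, and with the geometric mean of the references -0.10; 35 of the 46 genes changed sign in some alternative, none of them called. The ANAC053 difference ranged from -5.57 to -5.12 leaving out each sample in turn, and from -6.42 (limma on the authors' values) to -4.20 (the doubtful library as labelled) otherwise.

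The main model did not pair samples by number. Deviations of same-numbered samples correlated at 0.419, 0.719 and 0.0813 at 14, 22 and 26 d. The correlation was highest at 22 d and lowest at 26 d. Each value runs over the genes of a single pair of samples in each group. Genes are not independent replicates, so these values cannot show whether the numbers pair the samples. Whether the numbers mark samples handled together was not tested. With a replicate block the ANAC053 difference was -5.32 and the counts of calls stayed 0.

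For the change from 14 to 26 d inside anac053, 13 genes were higher with TMM and 13 with DESeq2, in place of 34; 9 and 15 were lower, in place of 3, and 5 without a filter, 0 above a mean count of 100 and 5 with the anac053 and Col A samples alone. Leaving out each sample in turn, 25 to 34 genes were higher and 3 to 3 lower. ANAC078 (-0.37 and -0.54), ANAC083 (-0.024 and -0.18) and NTL9 (-0.25 and -0.40) turned to a fall with TMM and DESeq2; both scale on the NAC genes, whose median rose against the references. The count of genes whose change differed from Col A was 0 in 31 alternatives. Depth limits ANAC053 in anac053, with 1 to 36 raw counts a sample, and the 22 d library of 31613 counts.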
